A study of Mus musculus with 6 samples.

Results

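Genes of 8 secreted proteins of the complement and acute phase systems that fibroblasts can make are described here, Lrg1, Lcn2, Saa3, C1ra, C1s1, C4b, C3 and Serping1, which are 8 of the 22355 genes in the deposited table. They were chosen by gene name for these functions while earlier results from the same libraries were known, so the TPM values of the comparison described below had a part in the choice and the members' differences are given as descriptions. The cells were MEFs, cultured connective tissue cells derived from mouse embryos, sequenced as RNA in 2 groups of 3 libraries. The siControl group received a negative control small interfering RNA (siRNA), a short double-stranded RNA that directs cleavage of matching transcripts, and the siHk2 group an siRNA against Hk2, the gene of the glucose-phosphorylating enzyme hexokinase 2. Cells of both groups were transfected, and the labels give no strain, embryo age, time after transfection or number of siRNA sequences. Liver injury is named in the series title, but no liver sample was analysed here. Libraries are named by the numbers of their columns, 4, 5 and 6 for siControl and 1, 2 and 3 for siHk2.

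Complement is a cascade of blood and tissue proteins that tags and lyses microbes. In its classical pathway the proteases C1r and C1s, bound to the recognition protein C1q, cleave C4 and C2, and the resulting enzyme cleaves C3, while the C1 inhibitor, a serpin encoded by Serping1, inactivates C1r and C1s. Acute phase proteins are secreted in larger amounts during inflammation, chiefly by the liver, under cytokines that act through the transcription factors STAT3, NF-kappaB and C/EBP. Among those described here, Lrg1 encodes leucine-rich alpha-2-glycoprotein, which binds the TGF-beta co-receptor endoglin, Lcn2 encodes lipocalin-2, which withholds iron from bacteria by binding their siderophores, and Saa3 encodes a serum amyloid A protein that in mice is made largely outside the liver.

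Promoter sequences were taken from RefSeq tables on build GRCm38.p6, an older build than the GRCm39 of the deposited coordinates, and were found for 6 of the 8 genes, all but C4b and Serping1. The 250 bases before the annotated start of Lrg1 and Lcn2 are shown because these 2 acute phase genes had unlike differences between the groups, as described below. Their ranges in siHk2 overlapped, with Lrg1 above Lcn2 in 3 of 3 libraries. Capitals mark matches, on either strand, to a kappaB motif (GGG, any 3 or 4 bases, TCC) or to a C/EBP motif (TTGCNNAA).
Lrg1 (chr17:56121947-56122196, minus strand): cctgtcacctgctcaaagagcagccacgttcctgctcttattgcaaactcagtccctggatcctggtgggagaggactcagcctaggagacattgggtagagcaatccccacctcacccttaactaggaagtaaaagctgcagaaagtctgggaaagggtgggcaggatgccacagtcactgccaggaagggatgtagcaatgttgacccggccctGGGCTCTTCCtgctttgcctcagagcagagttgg
Lcn2 (chr2:32387740-32387989, minus strand): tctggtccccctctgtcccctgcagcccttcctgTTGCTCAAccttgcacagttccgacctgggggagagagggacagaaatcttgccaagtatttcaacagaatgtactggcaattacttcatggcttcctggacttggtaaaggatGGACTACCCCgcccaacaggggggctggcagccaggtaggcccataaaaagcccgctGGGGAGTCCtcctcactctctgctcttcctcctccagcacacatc
In the Lrg1 window the single match was a kappaB match from -34 to -25, counted from the start. In the Lcn2 window there were kappaB matches from -102 to -93 and from -45 to -37, and a C/EBP match from -216 to -209. The C3 window had 2 kappaB matches and 1 C/EBP match, the Saa3 window and 1 of 2 overlapping windows of C1s1 had 1 C/EBP match each, and the C1ra window had none of these. No window held the STAT motif TTCNNNGAA. No match overlapped another. Over all 32851 promoter windows of this length, 25.7% held the kappaB motif, 9.56% the C/EBP motif and 7.02% the STAT motif, so such letters are common, and a match is not a shown binding site.

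Hk2 itself was at 57.1, 62.5 and 58.9 TPM in siControl libraries 4, 5 and 6 and at 22.4, 21.4 and 21.8 TPM in siHk2 libraries 1, 2 and 3, lower in 3 of 3 libraries. TPM, a unit of relative transcript abundance, corrects for transcript length and scales each library to the same total, so the depth of the libraries is unknown. The test in limma took in the 13341 genes whose mean reached 1 TPM, and 13.6% of them (1810) passed an adjusted p of 0.05; as shares of all tested genes, 6.15% (820) were higher and 7.42% (990) lower in the siHk2 group. That count of 1810 was 506 when siHk2 library 3 was left out, 662 when siControl library 4 was, 720 for siHk2 library 2 and 866 for siHk2 library 1. Separate cultures are not stated for the libraries of either group, and p-values then reflect only how far these samples spread, which may be technical. The fibroblast markers Col1a1, Col1a2, Col3a1, Fn1, Vim, Pdgfra and S100a4 were present, with a summed level over all 10 listed markers of 3677 to 3815 TPM in siControl and of 3400 to 3735 TPM in siHk2, whereas Dcn, Lum and Thy1 were below 1 TPM in all 6 libraries. Vim, the vimentin gene and the largest term of that sum, fell by 0.26 on the log2 scale (adjusted p = 0.011 in limma), and none of the other 6 tested fibroblast markers passed. Col1a1 was at 105 ± 30.8 and 160 ± 32.9 TPM with overlapping groups, and Col1a2 at 533 ± 19.9 and 593 ± 6.4 TPM without overlap (SD, n = 3).

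Of the 8 genes, 4 reached a mean of 1 TPM and entered the test, Lrg1, Lcn2, C1ra and C1s1, and the other 4, Saa3, C3, Serping1 and C4b, had means over all libraries of 0.715, 0.695, 0.467 and 0.387 TPM. Lrg1 passed the threshold (higher) and the other 3 tested genes did not, beside 6.15% higher and 13.6% in either direction over all tested genes; since the same comparison had a part in choosing the genes, nothing is read from this count. Every siHk2 library lay above every siControl library for 4 of the 8 genes, Lrg1, C1s1, C3 and Saa3, and for 12.4% of all genes in the table. The siHk2 libraries lay wholly below for 0 of the 8 genes, and for 2643 of the 22355 genes in the table. For Lcn2, C1ra, C4b and Serping1 the groups overlapped. The plot of TPM by library shows both kinds.

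**Figure D1:**
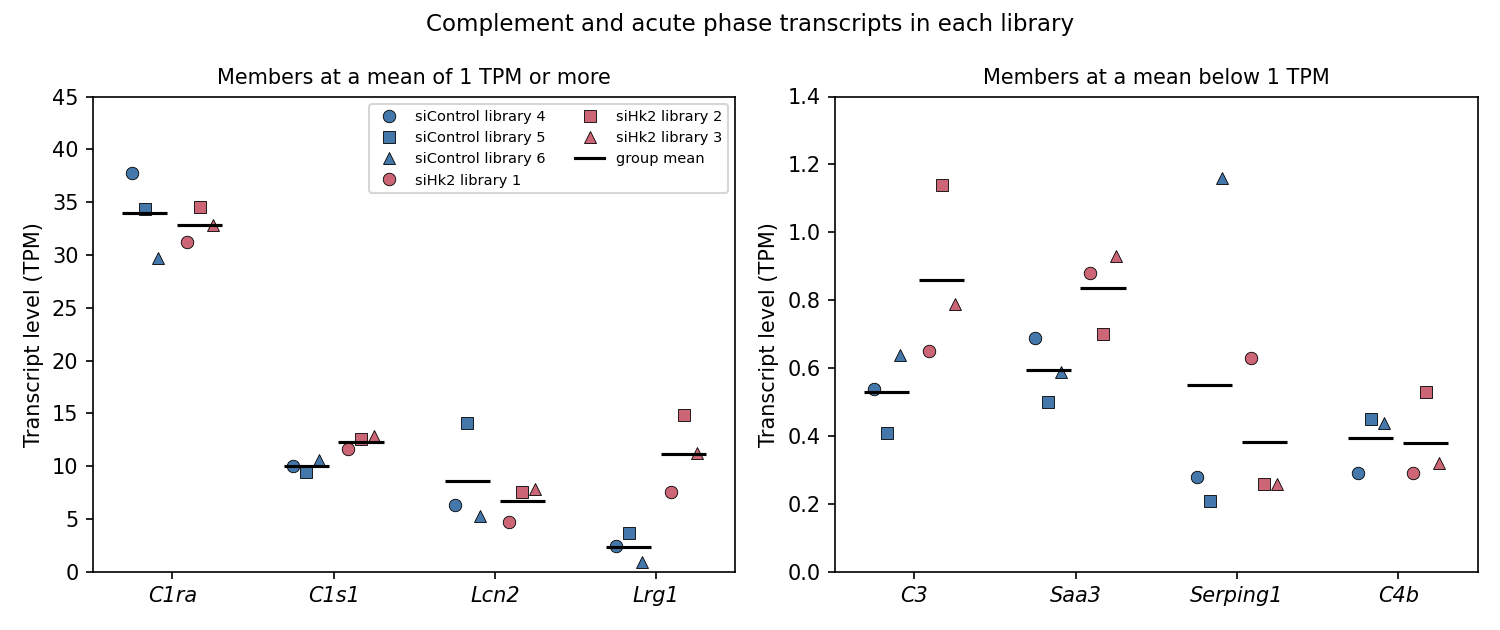
Transcript level (TPM, linear axis from 0) of the 8 genes in each library, siControl in blue and siHk2 in red, with marker shapes for single libraries and a bar for the group mean of 3 libraries. Lrg1 lies at 7.57 to 14.8 TPM in siHk2 and at 0.96 to 3.67 TPM in siControl, while the ranges of Lcn2, C1ra, Serping1 and C4b overlap between the groups.

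Lrg1 had the largest difference of the 8 genes. Its transcript was at 2.45, 3.67 and 0.96 TPM in siControl libraries 4, 5 and 6, and at 7.57, 14.8 and 11.2 TPM in siHk2 libraries 1, 2 and 3. The lowest siHk2 library lay above the highest siControl library, and within each group the libraries were spread widely. The siControl mean of 2.36 ± 1.36 TPM and the siHk2 mean of 11.2 ± 3.62 TPM (SD, n = 3) gave a ratio of 4.75. On the log2(TPM + 1) scale the difference was 1.90 (SE 0.342, 95% confidence interval 1.11 to 2.70), which ranked 4 by size among the 820 genes called higher; by adjusted p it ranked 641 among the 1810 genes called in either direction. The call was lost without siControl library 4 (difference 1.97), without siHk2 library 2 (1.70) and without siHk2 library 3 (1.88), and the ratio ran from 3.66 without siControl library 6 to 6.57 without siControl library 5. Lrg1 (ENSMUSG00000037095) lies on the minus strand of chr17:56426678-56429001 in the deposited GRCm39 coordinates. None of the 50-base windows of its transcript occurred in a transcript of another gene.

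Lrg1 is also made by hepatocytes and neutrophils, so markers of those and of other cell types were set beside it. In bulk RNA, more cells of a type and more RNA per cell cannot be told apart. Hepatocyte markers were near 0: of 8 listed, the 3 in the table, Alb, Apoa1 and Apob, were each below 1 TPM in all 6 libraries, and their sum was 0.56 to 1.25 TPM in siControl and only 0.13 to 0.41 TPM in siHk2. Of 8 neutrophil markers 4 were in the table, with a sum of 0.25 to 1.26 TPM in siControl and of 1.28 to 3.02 TPM in siHk2. Ly6g, Mpo and Elane were below 1 TPM in all 6 libraries, Ly6g at 0 in 5 of them. The antimicrobial peptide gene Camp was at 0.43, 0.43 and 0.25 TPM in siControl and at 1.93, 1.07 and 2.14 TPM in siHk2. Camp, the only tested neutrophil marker, passed as higher (log2 difference 0.97, adjusted p = 0.0361 in limma). It reached the mean of 1 TPM only through its siHk2 values. Macrophage markers summed to 39.7 to 66.0 TPM in siControl and to 39.5 to 44.4 TPM in siHk2, of which most was Cd68, with Adgre1 and Ptprc at 0.2 TPM or less. Lyz2 was at 5.01 ± 2.03 and 3.52 ± 0.335 TPM and Fcgr1 at 0.58 ± 0.471 and 1.26 ± 0.455 TPM, both with overlapping groups. The 2 tested macrophage markers, Cd68 and Lyz2, did not pass. Of 6 listed adipocyte markers 4 were in the table, with sums of 195 to 340 TPM and 306 to 377 TPM, mostly Fabp4. Cidec, a lipid droplet protein, was higher (3.18 ± 0.512 and 8.93 ± 2.29 TPM). Adipoq and Plin1 were below 1 TPM in all 6 libraries, Adipoq with overlapping groups and Plin1 with all 3 siHk2 libraries above siControl. Epithelial markers, 6 of 7 in the table, summed to 2.26 to 3.09 TPM and 7.45 to 9.84 TPM, with the keratin gene Krt7 higher (1.55 ± 0.521 and 5.31 ± 0.825 TPM). The keratin genes Krt8 (0.167 ± 0.165 and 1.39 ± 0.529 TPM, not tested) and Krt14 (0.62 ± 0.322 and 1.59 ± 0.429 TPM, not past the threshold) also lay above siControl in all 3 siHk2 libraries, Krt18 overlapped, and Epcam and Cdh1 were below 0.1 TPM. Endothelial markers, 5 of 6 in the table, were each below 1 TPM in all 6 libraries, with sums of 0.26 to 0.83 and 0.68 to 0.75 TPM. The part of the neutrophil, adipocyte and epithelial markers in the Lrg1 difference was not tested. Camp, Cidec, Krt7, Krt8, Krt14, Krt18, Fabp4, Lyz2 and Fcgr1 were named here after their values were seen.

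Lcn2 did not follow Lrg1. It was at 6.32, 14.1 and 5.3 TPM in siControl libraries 4, 5 and 6 and at 4.7, 7.57 and 7.88 TPM in siHk2 libraries 1, 2 and 3. The highest and the second lowest of the 6 values were both siControl libraries, and the groups overlapped. The means were 8.57 ± 4.81 and 6.72 ± 1.75 TPM (SD, n = 3), a ratio of 0.783 and a log2 difference of -0.23 (SE 0.333). The 95% confidence interval from -1.01 to 0.55 leaves room for a change in either direction. Without siControl library 5 the ratio was 1.16 and the log2 difference turned to 0.16. Lcn2 lies at chr2:32274645-32278264 on the minus strand.

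Saa3, the third acute phase gene, was near the lower end of the measured range. Its level was 0.69, 0.5 and 0.59 TPM in siControl and at 0.88, 0.7 and 0.93 TPM in siHk2. The groups did not overlap, by a gap of 0.01 TPM between siControl library 4 and siHk2 library 2. The means were 0.593 ± 0.095 and 0.837 ± 0.121 TPM (SD, n = 3), a ratio of 1.41 and a log2 difference of 0.20 (SE 0.107). With a pseudocount of 0.1 in place of 1 the log2 difference was 0.43, since a pseudocount of 1 exceeds the level itself. Saa3 lies at chr7:46361422-46365124 on the minus strand, and its neighbour and paralog Saa2 was at 0.09 ± 0.0361 and 0.107 ± 0.122 TPM.

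C1ra and C1s1, which encode the proteases C1r and C1s of the first complement component, were the most abundant complement transcripts of the 8. C1ra was at 37.8, 34.4 and 29.7 TPM in siControl libraries 4, 5 and 6 and at 31.2, 34.5 and 32.8 TPM in siHk2 libraries 1, 2 and 3. The 3 siHk2 values lay inside the siControl range. The means of 34.0 ± 4.06 and 32.8 ± 1.66 TPM (SD, n = 3) gave a log2 difference of -0.04 (SE 0.0911, 95% confidence interval -0.25 to 0.17), which was 0.04 without siControl library 4. C1s1 was at 10.03, 9.44 and 10.6 TPM in siControl and at 11.6, 12.6 and 12.8 TPM in siHk2. All 3 siHk2 libraries lay above the siControl libraries, and the spread within each group was small. Its means were 10.03 ± 0.585 and 12.3 ± 0.635 TPM (SD, n = 3), a ratio of 1.23 and a log2 difference of 0.27 (SE 0.0811, 95% confidence interval 0.09 to 0.46), which did not pass the threshold over all genes.

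The 2 protease genes lie 6901 bases apart on chromosome 6, C1ra at chr6:124489364-124500402 on the plus strand and C1s1 at chr6:124507304-124519318 on the minus strand, in a cluster with C1rl, C1rb and C1s2. In TPM per library, C1ra was 3.77, 3.64 and 2.8 times C1s1 in siControl and 2.68, 2.75 and 2.56 times C1s1 in siHk2. The siHk2 ratios lay below all 3 siControl ratios, of which library 6 was the nearest. Near copies make both levels uncertain, because 50.8% of the 50-base windows of the C1ra transcript also occur in another gene (48.0% in C1rb) and 39.0% of those of C1s1 (24.3% in C1s2). The sources used here do not say how reads shared by such copies were counted. The copies themselves were listed at low levels, C1rb at 0.877 ± 0.412 and 0.723 ± 0.673 TPM and C1s2 at 1.26 ± 0.148 and 1.69 ± 0.514 TPM.

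Of the substrates further down the cascade, C4b and C3 were low, whereas C2, described below, was at 9.97 ± 1.85 and 14.9 ± 0.552 TPM. C4b, which encodes the C4 protein cleaved by C1s, was at 0.29, 0.45 and 0.44 TPM in siControl and at 0.29, 0.53 and 0.32 TPM in siHk2. The ranges overlapped, with means of 0.393 ± 0.0896 and 0.38 ± 0.131 TPM (SD, n = 3) and a log2 difference of -0.02 (SE 0.101). It shares 35.2% of its transcript windows with C4a, which lies 65212 bases away on chromosome 17, is annotated in the deposited table as a long non-coding RNA and was listed at 5.36 ± 0.57 and 4.71 ± 0.456 TPM. The split of reads between C4b and C4a is therefore uncertain. C4b lies at chr17:34947354-34962856 on the minus strand.

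C3, the component on which all complement pathways converge, was at 0.54, 0.41 and 0.64 TPM in siControl and at 0.65, 1.14 and 0.79 TPM in siHk2. The groups did not overlap, but siHk2 library 1 exceeded siControl library 6 by 0.01 TPM only. The means were 0.53 ± 0.115 and 0.86 ± 0.252 TPM (SD, n = 3), a ratio of 1.62 that ran from 1.36 without siHk2 library 2 to 1.82 without siHk2 library 1. The log2 difference was 0.28 (SE 0.134), and 0.59 with a pseudocount of 0.1. C3 lies at chr17:57510970-57535136 on the minus strand and shared no 50-base window with another transcript.

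Serping1, the inhibitor, was the least even of the 8 genes, with a coefficient of variation (SD as a percentage of the mean) of 96.3% in siControl and 55.7% in siHk2. It was at 0.28, 0.21 and 1.16 TPM in siControl libraries 4, 5 and 6 and at 0.63, 0.26 and 0.26 TPM in siHk2 libraries 1, 2 and 3. One siControl library was the highest of the 6 and another the lowest. The means were 0.55 ± 0.529 and 0.383 ± 0.214 TPM (SD, n = 3), a ratio of 0.697 and a log2 difference of -0.12 (SE 0.244). The ratio rests on siControl library 6 and was 1.56 without it. Serping1 lies at chr2:84595731-84605788 on the minus strand.

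Because TPM is per length, the 8 genes can be ordered within a group. In siControl the order of mean levels was C1ra, C1s1, Lcn2, Lrg1, Saa3, Serping1, C3 and C4b. C1ra lay above C1s1, Lcn2 above Lrg1, and Lrg1 above Saa3 without overlap of their ranges, whereas C1s1 and Lcn2, and Saa3, Serping1, C3 and C4b, overlapped with their neighbours. In siHk2 the order was C1ra, C1s1, Lrg1, Lcn2, C3, Saa3, Serping1 and C4b, with C1ra above C1s1, Lcn2 above C3, and Saa3 above Serping1 without overlap. The ranges of C1s1 and Lrg1 overlapped, and so did those of Lrg1 and Lcn2, although Lrg1 was above Lcn2 within 3 of 3 siHk2 libraries. The summed level of the 8 genes came to 58.4, 63.2 and 49.4 TPM in siControl and to 57.5, 72.1 and 67.1 TPM in siHk2. Lrg1 made up 4.2, 5.81 and 1.94% of it in siControl and 13.2, 20.5 and 16.7% in siHk2. Without Lrg1 the sums came to 55.9, 59.5 and 48.4 TPM in siControl and to 49.96, 57.3 and 55.8 TPM in siHk2, which overlap.

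Lrg1 and Lcn2 varied more between libraries of a group than the median gene of like mean over all libraries. The coefficient of variation of Lrg1 was 57.5% in siControl and 32.3% in siHk2, and that of Lcn2 was 56.1% and 26.1%. Its median over the 3183 tested genes with a mean of 3 to 15 TPM over all libraries was 11.8% and 10.6%. In siControl alone Lrg1 had a mean of 2.36 TPM, below that band, so its level there is not alike. C1s1 stood at 5.83% and 5.15%, and C1ra at 11.96% and 5.05%. SiHk2 library 1 was the lowest siHk2 library for 6 of the 8 genes, as it was for 5338 of 13341 tested genes. Lrg1 followed the order library 5, 4, 6 in siControl and 2, 3, 1 in siHk2, from high to low, as did 10.1% of all tested genes. Of the 99 tested genes in the lists described below, 10 ran in this order: Masp1, Clu, Cd59a, Itgb2, C1qbp, Orm3, Hpx, Jak2, Irak2 and Irgm2, some of them with higher and some with lower means in siHk2. The map of deviations shows these library differences next to those between groups.

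**Figure D2:**
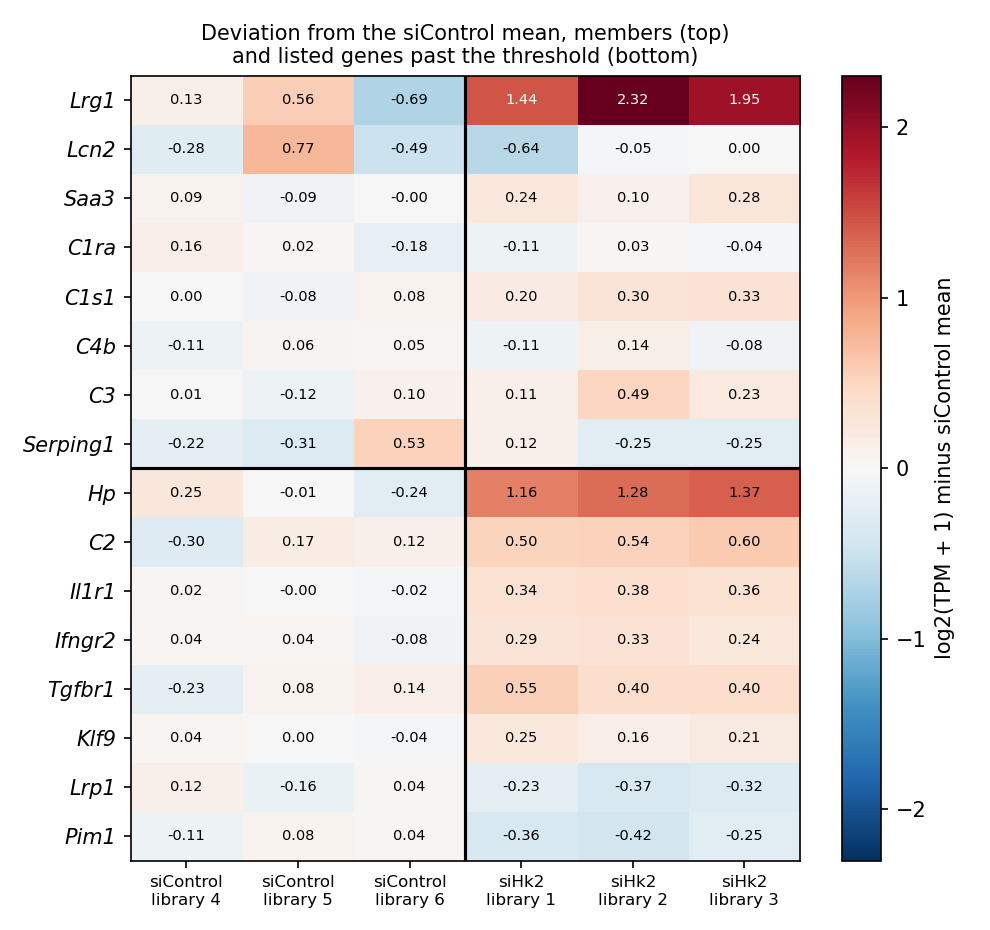
Colour and printed value give log2(TPM + 1) in each library minus the siControl mean of that gene, red for higher and blue for lower, with the 8 described genes above the line and the 8 listed genes that passed the threshold below it. Lrg1 stands at 1.44, 2.32 and 1.95 in the siHk2 libraries and Hp at 1.16, 1.28 and 1.37, while Lcn2 has its highest value, 0.77, in siControl library 5.

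The neighbours of Lrg1 on chromosome 17 differed from it and from each other. Plin4, a lipid droplet coat protein gene 9874 bases away, was at 239, 241 and 251 TPM in siControl and at 303, 321 and 319 TPM in siHk2. It rose by 0.37 on the log2 scale (SE 0.042, adjusted p = 0.00351 in limma), higher in 3 of 3 siHk2 libraries. Plin5, a related gene between the 2, was below 1 TPM in all 6 libraries. Sema6b, a semaphorin gene 1083 bases away on the other side, was at 96.3 ± 3.19 and 83.1 ± 5.50 TPM, a log2 difference of -0.21 that did not pass (adjusted p = 0.0531 in limma). A long non-coding RNA, ENSMUSG00000121227, overlaps Lrg1 on the opposite strand and was listed at 0, 0.37 and 0 TPM in siControl and at 0.48, 0.7 and 0.93 TPM in siHk2. The sources used here do not say whether counting used the strand, so reads of Lrg1 and of this RNA may not have been separated. Beside C4b, the extracellular matrix gene Tnxb rose from 34.4 ± 4.28 to 49.4 ± 5.41 TPM (log2 difference 0.51, adjusted p = 0.0247 in limma). The Lrg1 neighbours were named for their position, after their values were seen. Tnxb was picked after its values were seen, and other neighbours of C4b and those of the other described genes are left out of this paragraph.

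**Figure D3:**
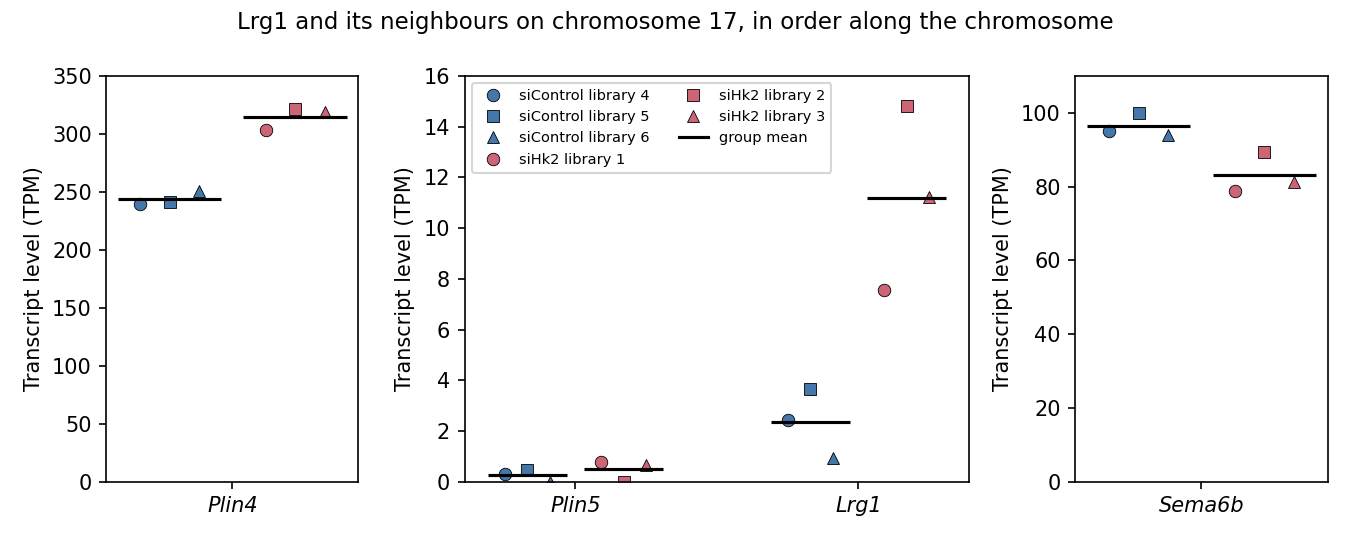
Transcript level (TPM, each panel with its own linear axis from 0) of Lrg1 and 3 neighbouring genes in each library, with marker shapes for single libraries and a bar for the mean of 3 libraries. Plin4 and Lrg1 lie higher in all siHk2 libraries, Sema6b lies lower in all of them, and Plin5 stays below 1 TPM in both groups.

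Around the 8 genes, 10 lists of complement, acute phase and upstream signalling genes named 189 genes, of which 162 were in the table and 99 were tested. Of these 99, 6 were higher and 2 lower, beside 6.15% higher and 7.42% lower over all tested genes. The median log2 difference was 0.08, beside 0.01 over all tested genes. The 8 genes were C2, Hp, Il1r1, Ifngr2, Klf9 and Tgfbr1, which rose, and Lrp1 and Pim1, which fell. Calls were lost when single libraries were left out, which also leaves the test fewer libraries. Of the 8, 0 were kept without siHk2 library 3, 1 without siHk2 library 2 (Hp) and 2 without siHk2 library 1 (Il1r1 and Hp). Kept were 2 without siControl library 4 (Ifngr2 and Hp), 5 without siControl library 6 and 6 without siControl library 5. None of the 8 turned in direction under any of the 14 alternative settings that gave it a value.

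In the complement cascade itself, the gene of the classical pathway component C2 rose. It was at 7.85, 11.3 and 10.8 TPM in siControl and at 14.4, 14.8 and 15.5 TPM in siHk2, without overlap. Its log2 difference was 0.55 (SE 0.129, adjusted p = 0.0335 in limma), and from 0.40 to 0.74 over the alternatives, of which 8 of 14 kept the call. Since 58.0% of its transcript windows also occur in the gene model Gm20547, its level is uncertain. Of 27 listed complement proteases and components 20 were in the table and 11 were tested, 1 higher and 0 lower, with a median log2 difference of 0.17. The best expressed was Colec12, a scavenger receptor of the collectin family, at 70.2 ± 14.3 and 77.4 ± 10.9 TPM.

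Of 14 listed complement regulators 12 were in the table and 4 were tested. None of the 4 passed in limma, and the median log2 difference was 0.28. In limma 2 of them had an unadjusted p under 0.05, beside 4093 of all 13341 tested genes. Clu, which encodes the lysis inhibitor clusterin, was at 90.2, 119 and 73.1 TPM in siControl and at 118, 160 and 148 TPM in siHk2. SiHk2 library 1 lay within the siControl range, and the log2 difference of 0.61 had an adjusted p = 0.0665 in limma. Of 11 listed receptors 10 were in the table and 4 were tested, 0 higher and 1 lower, with a median of -0.17. Lrp1, a large endocytic receptor, fell from 121 ± 11.7 to 97.5 ± 4.93 TPM (log2 difference -0.31, adjusted p = 0.039 in limma), lower in 3 of 3 siHk2 libraries. The best expressed of them, C1qbp, which binds the globular heads of C1q, was at 186 ± 7.92 and 174 ± 2.55 TPM.

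Among 37 other acute phase genes 25 were in the table, 17 of them below 1 TPM in all 6 libraries, and 7 were tested. One rose, 0 fell, and the median log2 difference was 0.71. Hp encodes haptoglobin, which binds free hemoglobin. It was at 0.92, 0.6 and 0.36 TPM in siControl and at 2.6, 2.9 and 3.16 TPM in siHk2, a ratio of 4.61 near that of Lrg1, with no overlap. Its log2 difference was 1.27 (SE 0.194, adjusted p = 0.00873 in limma), and 1.22, no longer past the threshold, without siHk2 library 3. Hp reached the mean of 1 TPM only through its siHk2 values, so its presence among the tested genes, and its part in the median of the list, follow from its being high there. Cp, which encodes the copper carrier ceruloplasmin and was the best expressed of the list, was at 230 ± 31.3 and 272 ± 29.3 TPM and did not pass.

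Chosen after their values were seen, 3 further acute phase genes are given by their values. Orm1, an orosomucoid gene, was at 2.12, 0.83 and 1.49 TPM in siControl and at 2.43, 4.96 and 5.49 TPM in siHk2 (log2 difference 1.07, adjusted p = 0.0535 in limma). Its level is uncertain, since 20.4% of its transcript windows also occur in Orm2. Orm2 itself was at 0.713 ± 0.412 and 0.797 ± 0.699 TPM with overlapping groups. Orm3 was at 3.19, 4.59 and 1.25 TPM and 4.32, 8.65 and 4.72 TPM with overlapping groups (log2 difference 0.83, adjusted p = 0.172 in limma). Lbp, which encodes the lipopolysaccharide-binding protein, was at 5.39 ± 0.544 and 7.29 ± 0.354 TPM (adjusted p = 0.0528 in limma). Orm1, Orm3 and Lbp did not pass. All 3 had positive differences, as had 6 of the 7 tested genes of this list, beside 6826 of all 13341 tested genes. The exception, Hpx, was at 2.77 ± 0.293 and 2.04 ± 0.331 TPM without overlap (log2 difference -0.31, adjusted p = 0.225 in limma).

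**Figure D4:**
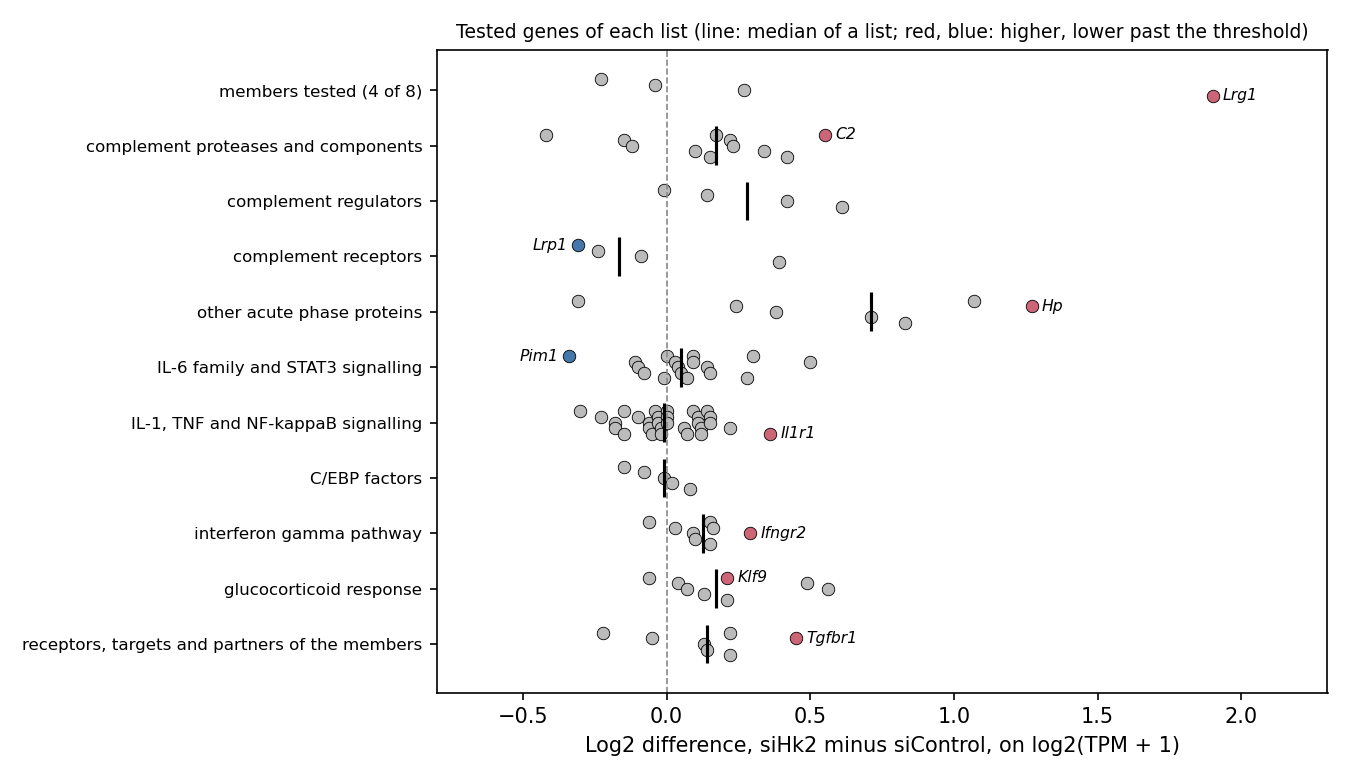
Log2 difference (siHk2 minus siControl, on log2(TPM + 1)) of each tested gene in the 10 lists and of the 4 tested genes among the 8 described, with a line at the median of each list. Red and blue points passed the threshold as higher and lower, 6 and 2 of the 99 listed genes; the medians of the IL-6, IL-1 and C/EBP lists lie between -0.01 and 0.05.

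For the signalling genes upstream of the acute phase response, counts are to be read beside the 6.15% higher and 7.42% lower over all tested genes. In the IL-6 and STAT3 list 17 of 19 genes were tested, 0 higher and 1 lower, with a median log2 difference of 0.05. Pim1, a kinase gene induced by STAT factors, fell from 13.9 ± 1.02 to 10.8 ± 0.741 TPM (log2 difference -0.34, adjusted p = 0.0415 in limma), a call kept in 5 of 14 alternatives. The best expressed, the kinase gene Jak1, was at 116 ± 2.05 and 122 ± 3.39 TPM. Of 34 genes of IL-1, TNF and NF-kappaB signalling 30 were tested, 1 higher and 0 lower, with a median of -0.01. Il1r1, the IL-1 receptor gene, rose from 12.02 ± 0.189 to 15.7 ± 0.243 TPM (log2 difference 0.36, adjusted p = 0.0138 in limma), higher in 3 of 3 siHk2 libraries. Tnfrsf1a, the best expressed, was at 204 ± 6.66 and 190 ± 3.18 TPM.

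Of 7 C/EBP factors 5 were tested and none passed in limma, with a median of -0.01. In limma 1 of them had an unadjusted p under 0.05, beside 4093 of all 13341 tested genes. Cebpb, the best expressed of them, was at 736, 769 and 619 TPM in siControl and at 703, 712 and 691 TPM in siHk2, all 3 siHk2 values lying within the siControl range. In the interferon gamma list 8 of 13 genes in the table were tested, 1 higher and 0 lower, with a median of 0.12. Its rising and best expressed gene was Ifngr2, a subunit of the interferon gamma receptor, at 55.7 ± 2.55 and 68.3 ± 2.11 TPM (log2 difference 0.29, adjusted p = 0.0149 in limma). In the glucocorticoid list 8 of 9 genes were tested, 1 higher and 0 lower, with a median of 0.17. Klf9, a transcription factor gene induced by glucocorticoids, rose from 49.8 ± 1.51 to 57.6 ± 1.91 TPM (log2 difference 0.21, adjusted p = 0.0361 in limma), and Fkbp5, the best expressed, was at 97.2 ± 2.86 and 93.2 ± 0.744 TPM.

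Of 19 receptors, targets and partners of the 8 proteins 15 were in the table and 7 were tested, 1 higher and 0 lower, with a median of 0.14. Tgfbr1, a TGF-beta receptor gene, was at 10.6, 13.4 and 13.97 TPM in siControl and at 18.8, 16.8 and 16.9 TPM in siHk2, without overlap (log2 difference 0.45, SE 0.111, adjusted p = 0.0385 in limma). Eng, the gene of endoglin to which the Lrg1 protein binds, was the best expressed of the list, at 268 ± 18.0 and 259 ± 6.54 TPM with overlapping groups. Slc22a17, a receptor gene for lipocalin-2, was below 1 TPM in all 6 libraries.

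The 3 genes whose centred log2 profiles lay nearest to each of the 8, out of 9943 candidates whose mean reached 5 TPM, compared over 6 libraries, are given as a description. For Lrg1 these were Nr4a1, Cox8b and Angpt4, at a root mean square distance of 0.383, 0.39 and 0.397 on the log2 scale. None was close: Nr4a1 was at 5.06, 5.71 and 3.08 TPM in siControl and at 8.99, 14.1 and 13.2 TPM in siHk2, and it shared the highest siControl and siHk2 libraries with Lrg1. For C1s1 the distances were far smaller, 0.025 for Tnrc6b, 0.0264 for Acadsb and 0.027 for Dad1, and likewise for C1ra with Hes1, Trmt10b and Pcdhgc3 (0.0287, 0.0288 and 0.0317). The nearest to Lcn2 were Tarm1, Sspo and Gli1 (0.15, 0.155 and 0.155). Pex11a and Fahd1 were among the 3 nearest to Saa3. Nearest to C3 were Nbdy, Marchf2 and Apool, to C4b Cebpd, Dync2li1 and Fbxo6, and to Serping1 AA467197, Fam133b and Snrnp35. For these 4 genes below 1 TPM the pseudocount flattens the profile, and over all 8 genes 12 of the 24 nearest genes were the same with a pseudocount of 0.1.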

How the data were processed

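Polyadenylated RNA of MEFs was sequenced on a BGI platform from DNA nanoballs, per the labels' protocols, which describe strand marking with dUTP for strand-specific libraries. The authors deposited TPM values rounded to 2 decimals, in 1 table of 22355 genes with 6 library columns. Per the submitters' processing notes the genome was GRCm39 (mm39); for read alignment, counting and gene models the tools are not given in the sources used. TPM keeps no depth, so no counting interval or floor is given. The siControl columns carry the numbers 4, 5 and 6, which match no sample title, and were taken as that group's libraries. All of the table's library columns were used.

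Using limma 3.58.1 (R 4.3.3), log2(TPM + 1) values of the 13341 genes whose mean reached 1 TPM were fitted with a mean-variance trend and no covariate; tests were two-sided and p-values were adjusted by Benjamini and Hochberg's method over all tested genes, at a threshold of 0.05. The pseudocount understates changes of low genes. For genes below 1 TPM the log2 difference and its SE come from the same fit run without the filter on mean level, and no p-value is given. That SE draws on the spread of other genes as well as on the gene's own 6 values. The fit was tested on simulated data. The members and all lists were chosen with earlier results of these data known. Genes named were Hk2, the members and their paralogs, the genes of each list past the threshold, the best expressed gene of each list, and the 3 nearest profiles of each member; others are said to be chosen later, and values of some single genes are left out of the text. Windows of 50 bases came from GENCODE M21 transcripts (GRCm38), matched by gene identifier, and promoters from RefSeq. Alternatives were other pseudocounts, filters, scalings, trend, library weights and leaving out each library. Tables and plots were made with Python 3.11.15, pandas 2.3.3, numpy 2.4.6 and matplotlib 3.10.9.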

Additional observations from a re-analysis of the deposited data

How the results depend on the processing

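No paired analysis was possible because the siControl columns carry the numbers 4, 5 and 6, which match no title, so no column of that group could be given a number shared with siHk2. Hk2 kept its direction and its call under all 14 alternatives (-1.44 to -1.37). Of all tested genes 1810 passed, against 4040 with library weights, 1186 with no filter and 1057 with no mean-variance trend, and 506 to 2129 leaving out 1 library. The 8 calls in the lists became 24, 5 and 5 in these 3 settings and 0 to 10 leaving out 1 library. Lrg1 stayed higher in all 14 (1.56 to 2.33) and was called in 11, losing the call in 3 of the 6 fits without 1 library (range over the 6: 1.56 to 2.19). C1s1 (0.27) passed with library weights (0.30) and in no other setting. Lcn2 turned to 0.02 with library weights and ran from -0.47 to 0.16 leaving out 1 library, and C1ra from -0.13 to 0.04. With a pseudocount of 0.1, C3 moved to 0.59, Saa3 to 0.43, and 12 of 24 nearest profiles were the same. Of the 8 positions in the order of levels, 3 to 6 (siControl) and 4 to 8 (siHk2) were kept leaving out 1 library. The causes were not tested. Depth is unknown, so the precision of the 4 genes below 1 TPM is known only from the spread between libraries. Their SE also draws on the spread of other genes in the fit.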

Other observations

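Several complement genes outside those described had group means that lay apart without passing the threshold, some of them with overlapping libraries. They were picked after their values were seen and are given as values. Masp1, a lectin pathway protease gene, was at 13.7, 17.4 and 11.97 TPM in siControl and at 9.63, 11.3 and 10.2 TPM in siHk2, without overlap (adjusted p = 0.08 in limma). Cfp, the gene of properdin, which stabilises the alternative pathway convertase, was at 23.6, 32.0 and 24.5 TPM and 31.8, 38.7 and 36.7 TPM with a narrow overlap (adjusted p = 0.0684 in limma). C1rl, a C1r-like protease gene next to C1ra, was at 29.6 ± 1.85 and 33.4 ± 1.55 TPM (SD, n = 3, adjusted p = 0.133 in limma). Cd59a, which blocks the membrane attack complex, was at 20.2 ± 3.12 and 27.2 ± 3.12 TPM with overlapping groups (SD, n = 3, adjusted p = 0.065 in limma). The cytokine genes Il6 (2.38 ± 0.802 and 3.15 ± 0.934 TPM) and Tnf overlapped between the groups, and Il1b was at 0.17 TPM or less in all 6 libraries.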
